A study of Rattus norvegicus with 24 samples.

Results

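Cytokines of the IL-6 family signal through a shared receptor chain, the JAK kinases and STAT3, and 8 genes of this route were followed in the fetal rat brain across 4 maternal treatment groups. The genes were Il6st, Il6r, Lifr, Cntfr, Jak1, Jak2, Stat3 and Socs3. They were chosen by symbol and not by their values, though with earlier results of these data known, and are 8 of the 17420 genes in the deposited table. All 8 passed the filter on low values, a value above the offset of 0.0001 in at least 18 of the 24 pups, as did 13371 genes in all.

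RNA sequencing was performed on the hippocampal and neocortical tissue of 24 Sprague-Dawley pups at embryonic day 18. Dams of the Saline group received saline. Dams of the MAM group received methylazoxymethanol acetate, a DNA-alkylating agent that arrests dividing cells, at 22 mg/kg. Dams of the Poly I:C group received a synthetic double-stranded RNA that mimics a viral infection, at 7.5 mg/kg. These injections were given on gestational day 17, 18 hours before collection. Low Protein dams ate a diet with 6.1% protein from gestational day 11, and control dams an isocaloric diet with 20.3% protein. Neither the diet of dams given MAM or Poly I:C, nor any injection of Low Protein dams, is stated in the sources used here. Each group held 6 pups, 3 from each of 2 litters. Because the dam was treated, a group holds only 2 treated animals, and an exact permutation test of 2 litters against 2 has 6 splits and cannot go below p = 0.333. All p-values below treat the pup as the sample and measure the spread between pups.

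gp130, the product of Il6st, is the signalling chain that receptors of the IL-6 family share. Il6r, Lifr and Cntfr encode receptor chains that bind IL-6, leukaemia inhibitory factor and ciliary neurotrophic factor, in this order. JAK1 and JAK2 are tyrosine kinases that sit on the receptor chains and phosphorylate STAT3, a transcription factor. Socs3, a well-known STAT3 target gene, encodes the inhibitor that closes the feedback loop at gp130. In the developing forebrain the pathway is known for its part in astrocyte formation from neural progenitors, and maternal IL-6 is known from studies of maternal immune activation. Signalling itself runs through phosphorylation, which RNA values do not measure.

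The 8 symbols were all matched in the RefSeq gene table of the GRCr8 assembly, and 6 of the 8 had a promoter window of 250 bases before and 50 bases after an annotated start. The windows of Stat3 and Jak2 are shown, since both genes were lower after MAM at an unadjusted p under 0.05, the threshold that the study used for MAM. Capitals mark the 50 bases from the annotated start onward. The annotated start used was at the outer end of the gene for Jak2 and 154 bases inside it for Stat3, but 1207 bases inside for Socs3, 1496 for Il6r, 11360 for Il6st and 11602 for Lifr, so those 4 windows do not lie at the outer end of the gene. The Stat3 window lies at chr10:86363310-86363609 on the minus strand and the Jak2 window at chr1:236408655-236408954 on the plus strand, both in GRCr8.
Stat3: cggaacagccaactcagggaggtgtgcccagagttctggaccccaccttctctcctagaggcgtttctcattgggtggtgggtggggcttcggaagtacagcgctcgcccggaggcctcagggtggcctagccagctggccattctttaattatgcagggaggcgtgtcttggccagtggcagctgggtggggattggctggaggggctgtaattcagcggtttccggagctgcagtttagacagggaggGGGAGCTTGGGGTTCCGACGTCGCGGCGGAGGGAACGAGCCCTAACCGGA
Jak2: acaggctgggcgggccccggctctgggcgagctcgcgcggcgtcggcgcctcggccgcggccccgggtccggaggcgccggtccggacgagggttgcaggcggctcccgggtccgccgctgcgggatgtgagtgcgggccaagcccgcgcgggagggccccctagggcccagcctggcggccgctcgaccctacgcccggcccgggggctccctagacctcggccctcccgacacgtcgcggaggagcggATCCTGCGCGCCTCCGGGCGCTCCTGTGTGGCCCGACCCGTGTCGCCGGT
The GC content was 62.3% in the Stat3 window and 80.3% in the Jak2 window, with a median of 51.7% over all 33469 windows. The STAT-type motif TTCNNNGAA, which reads the same on both strands, was in neither the Stat3 nor the Jak2 window, in 0 of the 6 member windows, and in 8.87% of all windows. A window without a match says only that these letters are not in it.

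The deposited values sum to 70350.1 in every pup, and the reads behind them were estimated at 24.3 to 68.4 M per pup, and at no more than 40.6 M in any Poly I:C pup. Markers of cortical neurons and radial glia were present in every group, with group means of 90.1 to 105 for Neurod6 and 58.5 to 66.9 for Fabp7. Blood was present in the tissue as well, with group means of 2197 to 2701 for Hba1, and Ttr, a choroid plexus gene, had group means of 137 to 160.0. Saline pup 2.1 (litter 2, pup 1) stood apart, with the highest summed level of 8 markers of the ganglionic eminence and striatum in its group (92.5, lowest 47.5) and the lowest of 6 cortical neuron markers (123, highest 249). For the 8 genes and the markers named, results that rest on this pup are also given without it. For the other pathway genes, calls that were lost without this pup are named.

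The table gives values in TPM, but their low values appear to come in steps set by genomic span, though no other gene length was tried. Levels of different genes are therefore compared here per span. On that scale the order of the means over 24 pups was Socs3 (2.46 ± 0.393, SD, n = 24), Il6st (1.29 ± 0.184), Cntfr (0.978 ± 0.101), Jak1 (0.727 ± 0.0658), Jak2 (0.680 ± 0.0695), Stat3 (0.656 ± 0.0679), Lifr (0.0730 ± 0.0182) and Il6r (0.0513 ± 0.0102). The lowest Socs3 value (1.93) was above the highest Il6st value (1.74), and the lowest Stat3 value (0.526) was above the highest Lifr value (0.141). Every other pair of neighbours in this order overlapped, from Il6st and Cntfr to Lifr and Il6r. Socs3 was higher than 76.8% of the genes tested and Il6st than 65.5%, whereas Lifr was higher than 22.8% and Il6r than 19.5%. Only Il6st and Socs3 had a mean above 1 in every group, the limit the study set for its own differential expression analysis, so the other 6 genes lie outside that gene set.

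The order by reads was different, because the spans run from 3.40 kb for Socs3 to 108.6 kb for Jak1. The estimated reads had a median over pups of 3876 for Jak1, 2467 for Il6st, 2118 for Jak2, 1854 for Cntfr, 1670 for Stat3, 433 for Socs3, 254 for Lifr and 168 for Il6r. Counting error at these medians was 1.61% for Jak1 and 7.71% for Il6r. The spread between pups of a group was larger than this for every gene, with a residual SD on the log2 scale of 0.11 for Jak1, 0.13 for Jak2, 0.14 for Stat3, 0.14 for Cntfr, 0.20 for Il6st, 0.23 for Socs3, 0.30 for Il6r and 0.37 for Lifr.

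**Figure D1:**
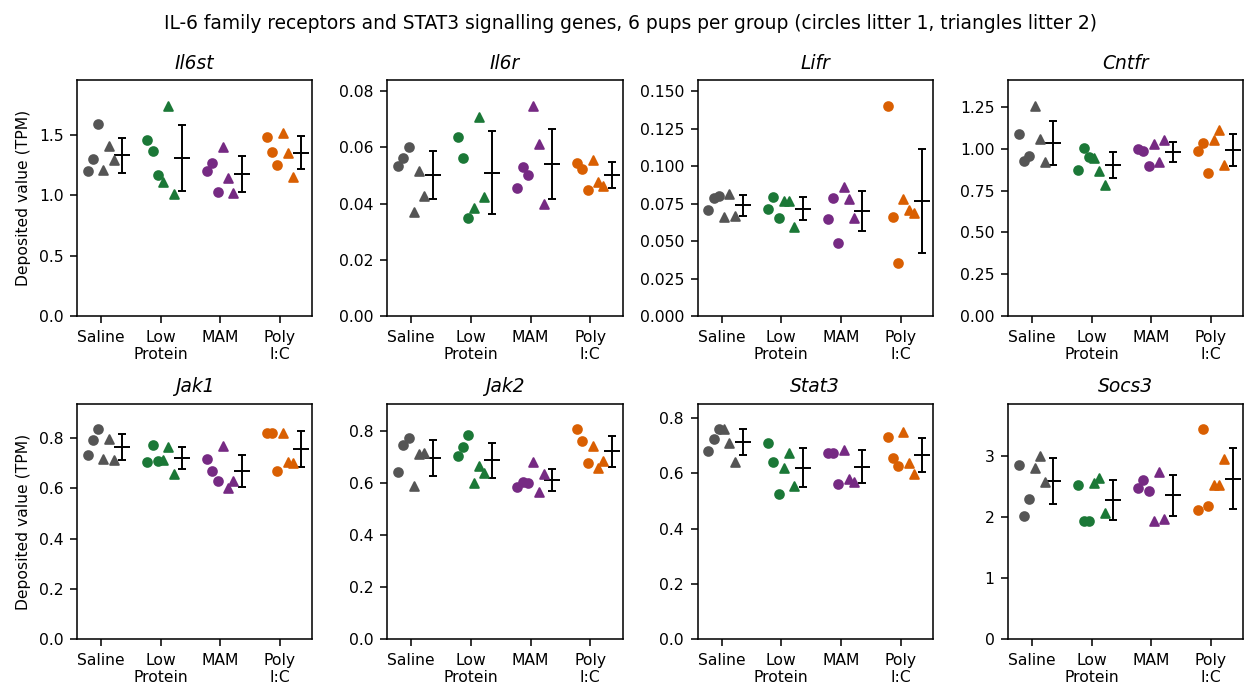
Deposited TPM value of each of the 8 genes (vertical axes start at 0) in 24 pups by group, with circles for litter 1 and triangles for litter 2 and a bar at each group's mean ± SD (n = 6). Stat3 runs from 0.641 to 0.761 in Saline and from 0.561 to 0.685 in MAM, and the Lifr value of 0.141 in a Poly I:C pup stands above the other pups.

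Among the receptor chains, the Il6st value (lowest, median and highest pup) was 1.20, 1.30 and 1.59 in Saline, 1.01, 1.17 and 1.40 in MAM, 1.15, 1.36 and 1.51 in Poly I:C and 1.01, 1.26 and 1.74 in Low Protein. The 4 groups overlapped throughout, and the widest spread was in Low Protein, whose litter 2 held both its highest and its lowest pup. Cntfr, the CNTF receptor chain, was at 0.921, 1.01 and 1.26 in Saline and at 0.785, 0.911 and 1.00 in Low Protein. For Poly I:C the Cntfr values were 0.858, 1.01 and 1.11, and for MAM 0.895, 0.993 and 1.05. All 6 Low Protein pups lay below the saline median of Cntfr and 3 of them below the lowest saline pup, while the highest saline value belonged to pup 2.1.

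The receptor chains Il6r and Lifr were at low levels in every group. Il6r ranged from 0.0347 to 0.0749 over all pups and its group means from 0.0501 to 0.0541. Lifr ranged from 0.0658 to 0.0817 in Saline, from 0.0597 to 0.0794 in Low Protein and from 0.0485 to 0.0860 in MAM. In Poly I:C, litter 1 held both the highest Lifr value of all 24 pups (0.141) and the lowest (0.0354), with about 336 and 87.4 estimated reads. The groups overlapped for both genes.

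Of the kinases, Jak1 was at 0.714, 0.761 and 0.836 (lowest, median and highest pup) in Saline, 0.602, 0.649 and 0.767 in MAM, 0.670, 0.761 and 0.821 in Poly I:C and 0.658, 0.711 and 0.773 in Low Protein. In MAM, 4 of the 6 pups were below the lowest saline pup, and 1 pup of litter 2 was above the saline median. Jak2 was at 0.591, 0.714 and 0.774 in Saline, 0.565, 0.604 and 0.682 in MAM, 0.658, 0.714 and 0.809 in Poly I:C and 0.602, 0.686 and 0.784 in Low Protein. All 6 MAM pups lay below the saline median of Jak2, but only 2 lay below the lowest saline pup, and 5 of the 6 lay below every Poly I:C pup.

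Stat3 was at 0.641, 0.718 and 0.761 in Saline, 0.561, 0.627 and 0.685 in MAM, 0.597, 0.647 and 0.750 in Poly I:C and 0.526, 0.630 and 0.711 in Low Protein. All 6 Low Protein pups and all 6 MAM pups were below the saline median, 3 of each were below the lowest saline pup, and the groups still overlapped. The Stat3 means of the 2 litters were 0.722 and 0.704 in Saline, 0.636 and 0.611 in MAM, 0.671 and 0.662 in Poly I:C and 0.626 and 0.616 in Low Protein, so both litters of each treatment were below both saline litters. For Socs3, the inhibitor, the pups ran from 2.02 to 3.00 in Saline, 1.94 to 2.74 in MAM, 2.12 to 3.44 in Poly I:C and 1.93 to 2.64 in Low Protein. The Socs3 litter means crossed, at 2.39 and 2.79 in Saline against 2.50 and 2.21 in MAM.

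For Low Protein against Saline, Stat3 and Cntfr were lower at this unadjusted threshold, and no gene of the 8 changed after adjustment over all genes. For Low Protein and Poly I:C the study also required a minimum fold change, which was not applied here. The log2 difference of Stat3 was -0.20 (SE 0.0796, 95% CI -0.37 to -0.04, a difference of -13.2%, exact permutation p = 0.0260, limma adjusted p = 0.667). That of Cntfr was -0.19 (SE 0.0794, 95% CI -0.35 to -0.03, -12.3%, exact permutation p = 0.0541, limma adjusted p = 0.677). The 2 of 8 genes at the unadjusted limma threshold stand beside 7.11% of all genes tested (4.47% lower and 2.64% higher), and the 0 of 8 at the adjusted threshold beside 0% of all genes. Socs3 was lower than the saline median in all 6 pups, with a log2 difference of -0.18 and an interval of -0.44 to 0.07. The remaining differences were -0.08 for Jak1, -0.05 for Lifr, -0.04 for Il6st, -0.02 for Jak2 and -0.01 for Il6r, and those of Lifr, Jak2 and Il6r changed sign under at least 1 other scaling of the samples. The median of the 8 was -0.07, and that of all genes -0.02.

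The call of Stat3 in Low Protein was lost without Low Protein pup 1.3 (log2 -0.16), and that of Cntfr without Saline pup 1.1 (-0.17), without Saline pup 2.1 (-0.13) or without Low Protein pup 2.3 (-0.15). Both calls were lost without litter 2 of Low Protein (-0.20 for Stat3 and -0.13 for Cntfr). The Stat3 call was also lost without litter 1 of Saline (-0.18), and the Cntfr call without litter 2 of Saline (-0.13). Of 8 markers of the ganglionic eminence and striatum, 3 were lower at the unadjusted threshold in the same comparison (Dlx1, Dlx5 and Lhx6) and 0 higher, beside 4.47% and 2.64% of all genes. Their summed levels were 47.5 to 92.5 in Saline and 39.4 to 57.2 in Low Protein. Without Saline pup 2.1 the highest saline sum was 60.9, and 1 of the 8 (Lhx6) was lower. No marker of that list was at the offset in every pup, the lowest being Drd2 at a saline mean of 0.0713. Their part in the Cntfr result was not tested. In bulk tissue, fewer cells of a type and less RNA per cell cannot be told apart.

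For MAM against Saline, both kinases and Stat3 were lower at the unadjusted threshold, by similar amounts, and none of the 8 genes changed after adjustment. The log2 difference was -0.19 for Jak1 (SE 0.0688, 95% CI -0.34 to -0.05, exact permutation p = 0.0173, limma adjusted p = 0.507). It was -0.18 for Jak2 (SE 0.0747, 95% CI -0.34 to -0.03, exact permutation p = 0.0325, limma adjusted p = 0.517). It was -0.20 for Stat3 (SE 0.0796, 95% CI -0.36 to -0.03, exact permutation p = 0.0238, limma adjusted p = 0.517). These are differences of -12.6%, -11.9% and -12.7%. The 3 of 8 genes at the unadjusted limma threshold stand beside 9.62% of all genes tested (7.46% lower and 2.15% higher), and the 0 of 8 at the adjusted threshold beside 0.0150%, or 2 genes. The receptor chain Il6st was at -0.18 (95% CI -0.41 to 0.05), Socs3 at -0.14, Lifr at -0.09, Cntfr at -0.07 and Il6r at 0.10, with Lifr and Cntfr at 0.02 after scaling by gene span. The median of the 8 was -0.16, and that of all genes -0.07.

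**Figure D2:**
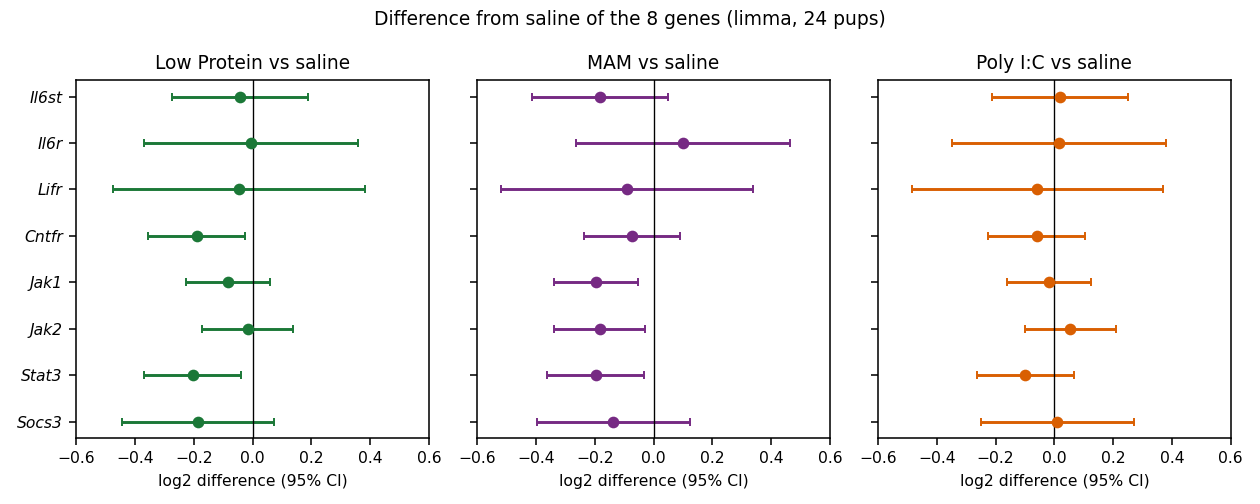
The log2 difference from Saline (horizontal axis) of each of the 8 genes in the 3 treatment groups (panels), with points for the limma estimate over 24 pups and bars for its 95% confidence interval. The intervals lie below 0 for Stat3 and Cntfr in Low Protein and for Jak1, Jak2 and Stat3 in MAM, and all include 0 in Poly I:C.

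Over all genes, the MAM difference varied with genomic span. The median log2 difference of all genes from Saline was -0.01 for spans under 10 kb, -0.06 for 10 to 30 kb, -0.10 for 30 to 120 kb and -0.15 above 120 kb. All members other than Socs3 lie in the class of 30 to 120 kb, where 10.0% of genes were lower at the unadjusted threshold. The 8 genes did not follow the order of their spans, since Il6r (64.7 kb) was at 0.10 and Lifr (68.6 kb) at -0.09, against -0.20 for Stat3 (52.0 kb) and -0.18 for Il6st (40.6 kb), and Socs3, the shortest, was at -0.14. When the linear trend with span was taken out of each pup, the MAM difference was -0.07 for Jak1 (95% CI -0.16 to 0.02), -0.07 for Jak2 (-0.20 to 0.05) and -0.09 for Stat3 (-0.22 to 0.03), and 0 of the 8 genes were at the unadjusted threshold. Stat3 in Low Protein was at -0.16 (95% CI -0.28 to -0.03, limma adjusted p = 0.736) after the same step, and Cntfr at -0.15 (-0.33 to 0.03), so 1 of 8 genes remained at that threshold. The same class of 30 to 120 kb had a median of 0.01 for Poly I:C and -0.03 for Low Protein.

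The trend with span, as a slope in log2 per 10-fold of span relative to the mean of all pups, was 0.0283 ± 0.0399 (SD, n = 6) in Saline, -0.0506 ± 0.0629 in MAM, 0.0238 ± 0.108 in Poly I:C and -0.00160 ± 0.0514 in Low Protein. Over the 24 pups the slope had a Pearson r of 0.85 with Jak1, 0.73 with Jak2, 0.69 with Lifr, 0.59 with Il6st and 0.55 with Stat3, and of 0.24 with Cntfr, 0.24 with Il6r and -0.14 with Socs3. The slope is taken over all genes of the same libraries, so these values are a description. The scaling also set the balance of directions in MAM, where 22.4% of the genes at the unadjusted threshold were higher as deposited, 65.1% by median of ratios, 55.3% by upper quartile and 73.7% by gene span. That share was 37.1%, 50.9%, 34.2% and 54.3% in Low Protein, and 42.0%, 45.5%, 30.4% and 58.2% in Poly I:C.

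**Figure D3:**
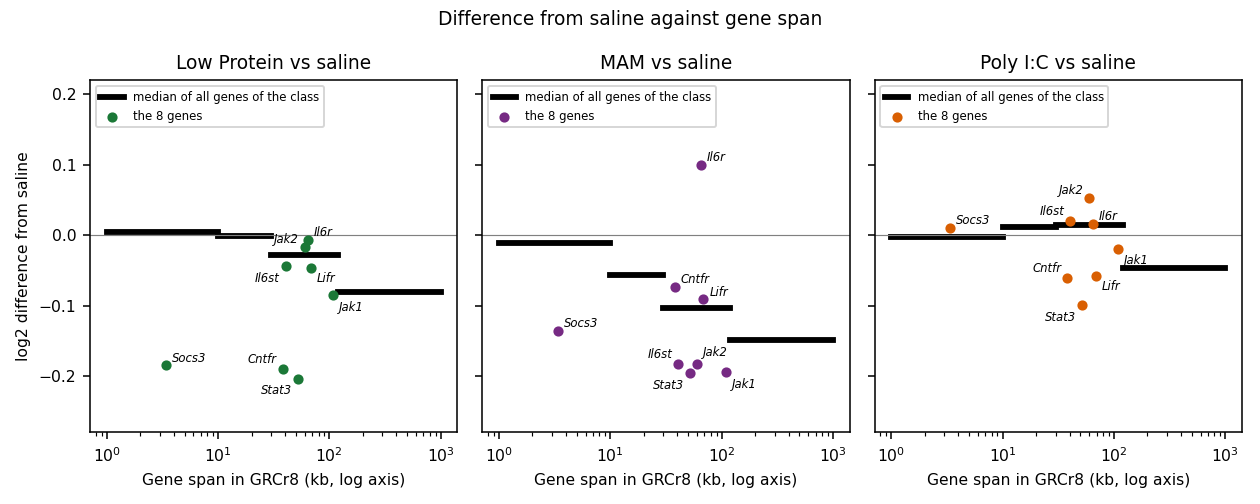
The log2 difference from Saline (vertical axis) against genomic span in GRCr8 (kb, log axis) for the 8 genes, with horizontal bars for the median of all genes under 10 kb, from 10 to 30 kb, from 30 to 120 kb and above 120 kb. In MAM the medians go from -0.01 to -0.15 with span, and Jak1, Jak2, Stat3 and Il6st lie at -0.18 to -0.20.

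No single pup ended the Jak1 call in MAM. The Jak2 call was lost without Saline pup 1.2 (log2 -0.16), without Saline pup 1.3 (-0.15) or without MAM pup 2.2 (-0.16), and the Stat3 call without MAM pup 1.3 (-0.17) or without MAM pup 2.3 (-0.17). Without litter 1 of Saline the values were -0.15 for Jak1, -0.13 for Jak2 and -0.18 for Stat3, and all 3 calls were lost. The Jak2 call was also lost without litter 1 of MAM (-0.15), and the Stat3 call without litter 2 of MAM (-0.17). A fit on litter means also ended the Jak2 call (-0.18), and scaling by median of ratios the Stat3 call (-0.13). Over all genes tested 2.15% were higher and 7.46% lower in MAM at the unadjusted threshold. The 9 microglia markers had summed levels of 10.9 to 14.1 against 9.50 to 11.2 in Saline, with no marker at the offset in every pup. The largest parts of the MAM sums were C1qa (mean 4.96) and C1qb (3.33). Of these 9 markers, 3 were higher in MAM at that threshold (C1qa, C1qb and Trem2) and 0 lower. Of the 9 differences 7 were above 0 and 2 below, with a median of 0.15. The 3 called markers were also higher under each other scaling. Without Saline pup 2.1, C1qa was not at the threshold, 3 of the 9 differences were below 0 and the median was 0.05. In the ganglionic eminence and striatum list 3 of 8 were lower (Dlx1, Lhx6 and Tac1), with sums of 44.1 to 60.4, but 0 of 8 were without Saline pup 2.1, and 1, 2 and 1 were by median of ratios, upper quartile and gene span. Of 5 blood markers tested 1 was higher (Hbe1, an embryonic globin). All 6 choroid plexus markers had a difference below 0, with a median of -0.34 and none at the threshold, and their summed levels of 58.3 to 214 in MAM overlapped those of 128 to 188 in Saline. In the endothelial list 0 of 8 and in the meningeal list 0 of 7 were at the threshold. Their part in the result was not tested.

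For Poly I:C against Saline, none of the 8 genes was at the unadjusted threshold, where 9.15% of all genes tested were (5.30% lower and 3.84% higher), and none was at the adjusted threshold (0% of all genes). Stat3 had the lowest limma p, with a log2 difference of -0.10 (SE 0.0796, 95% CI -0.26 to 0.07, exact permutation p = 0.154, limma adjusted p = 0.742). The intervals of the other genes also included 0. They were -0.21 to 0.25 for Il6st, -0.35 to 0.38 for Il6r, -0.49 to 0.37 for Lifr, -0.23 to 0.10 for Cntfr, -0.16 to 0.12 for Jak1, -0.10 to 0.21 for Jak2 and -0.25 to 0.27 for Socs3. The interval was narrowest for Jak1 and widest for Lifr among the 8. Il6r, Jak1, Lifr and Socs3 each changed sign under at least 1 other scaling or pseudocount. The median of the 8 was -0.00, and that of all genes 0.00. The 3 comparisons share the same 6 saline pups.

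The treatments were also compared with each other, without the saline pups. Jak2 was lower in MAM than in Poly I:C, with a log2 difference of -0.24 (SE 0.0747, 95% CI -0.39 to -0.08, exact permutation p = 0.00649, limma adjusted p = 0.103). Jak1 was lower in the same comparison by the unadjusted limma threshold, at -0.18 (95% CI -0.32 to -0.03, exact permutation p = 0.0541, limma adjusted p = 0.175). These 2 of 8 stand beside 17.9% of all genes (14.1% lower and 3.78% higher), and 1.08% of all genes were past the adjusted threshold, none of them among the 8. After scaling by gene span the Jak2 difference was -0.15 (limma adjusted p = 0.282) and the Jak1 difference -0.07 (limma adjusted p = 0.489), which ended the Jak1 call. Jak2 was higher in Low Protein than in MAM by 0.17 (95% CI 0.01 to 0.32, exact permutation p = 0.0455, limma adjusted p = 0.552), the 1 gene of 8 at the unadjusted threshold beside 8.57% of all genes (6.87% higher, and 0.0374% past the adjusted threshold), and by 0.11 after scaling by gene span and 0.12 by upper quartile, neither of which kept the call. Between Low Protein and Poly I:C, 0 of 8 genes were at the unadjusted threshold beside 4.90% of all genes, and 0 at the adjusted one beside 0.0150%. For Stat3 these 3 contrasts had intervals of -0.26 to 0.07 (MAM against Poly I:C), -0.17 to 0.16 (Low Protein against MAM) and -0.27 to 0.06 (Low Protein against Poly I:C), so a difference of the Stat3 effect between treatments was not shown. No member was free of overlap between 6 pups and 6 pups in any comparison, beside 0.875% of all genes for MAM, 0.434% for Poly I:C and 0.673% for Low Protein against Saline, 3.21% in MAM against Poly I:C, 0.815% in Low Protein against MAM and 0.262% in Low Protein against Poly I:C.

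The members varied together over pups to different degrees. The Pearson r of log2 values over 24 pups was 0.76 for Il6st and Jak1, 0.73 for Jak1 and Jak2, 0.73 for Il6st and Stat3, 0.72 for Jak1 and Stat3, and 0.66 for Il6st and Il6r. Of all genes tested, 5% had an r above 0.77 with Jak2, 0.73 with Jak1, 0.68 with Il6st, 0.62 with Stat3 and 0.57 with Il6r. Only the pairs of Il6st with Jak1 and with Stat3, of these 5, were above that level for both genes, and Jak1 with Jak2 was above it for neither. After scaling by gene span these were 0.02, 0.33, 0.28, 0.32 and 0.43. Stat3 and its target gene Socs3 had an r of 0.22, and Jak2 and Socs3 one of -0.23, or -0.50 within groups. The points share libraries, depth and litters, and the values are a description.

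**Figure D4:**
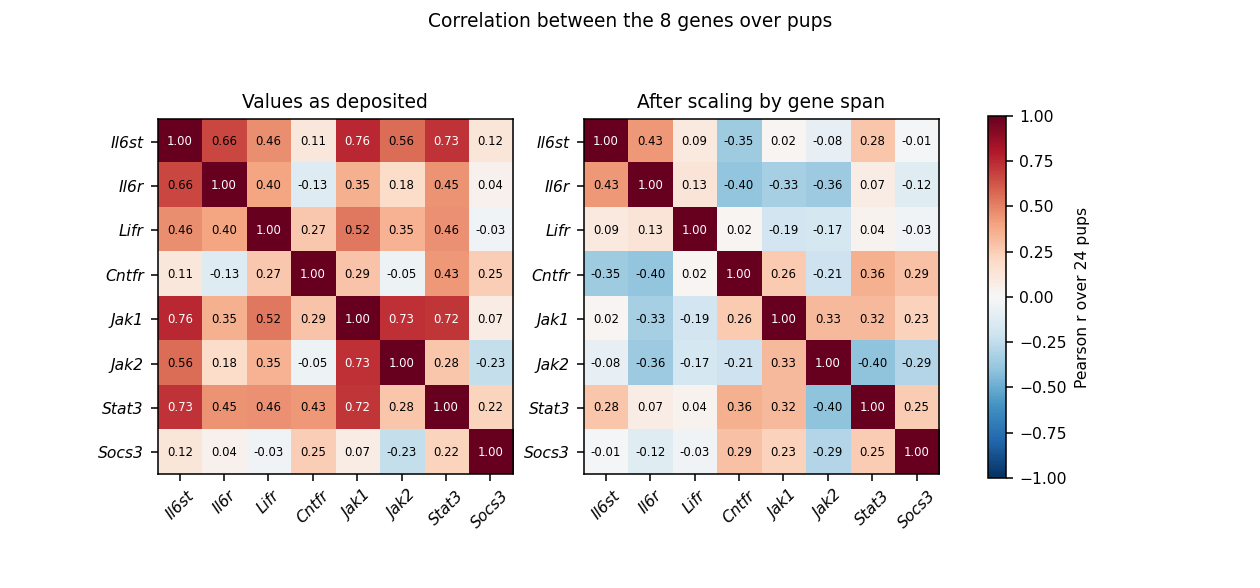
Pearson r between each pair of the 8 genes over 24 pups (both axes list the genes, the colour scale runs from -1 to 1), for the values as deposited on the left and after scaling by gene span on the right. The block of Il6st, Jak1 and Stat3 has r of 0.72 to 0.76 on the left and 0.02 to 0.32 on the right.

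The genes with the most similar pattern over the 24 pups, by Pearson r over all genes tested, were Tjp1 (0.94) and Man2a1 (0.90) for Il6st, Ncoa6 (0.92) and Prrc2c (0.92) for Jak1, Taf1 (0.94) and Ap1g1 (0.94) for Jak2, and Tenm4 (0.90) and Tnks (0.90) for Lifr. They were Cerk (0.87) and Spry4 (0.85) for Stat3, Stard8 (0.86) and Plbd1 (0.83) for Il6r, and LOC100911717 (0.78) and Pcsk7 (0.72) for Socs3. For Cntfr they were Dlx2 (0.85), a transcription factor of the ganglionic eminence, and Cers1 (0.84). The Dlx2 level ranged from 9.65 to 25.5 in Saline and from 9.31 to 15.7 in Low Protein. Without Saline pup 2.1 the highest saline value of Dlx2 was 16.4, and its r with Cntfr was 0.78 over 23 pups.

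The rest of the pathway was described from 6 gene lists, and none of their genes changed after adjustment in any comparison with Saline. Of 10 ligands, 7 were tested. Il6 itself was at the offset in 22 of 24 pups, the exceptions being Saline pup 1.3 (0.00324) and Poly I:C pup 2.3 (0.0271). Il11, a ligand of the family that also signals through gp130, was at 0.429 ± 0.0367 in Saline, 0.421 ± 0.0775 in MAM, 0.331 ± 0.0307 in Poly I:C and 0.339 ± 0.0772 in Low Protein. All 6 Poly I:C pups (0.297 to 0.378) were below all 6 saline pups (0.383 to 0.476), with a log2 difference of -0.38 (exact permutation p = 0.00216, the smallest possible with 6 against 6, limma adjusted p = 0.379). Over all genes tested, 0.434% (58 genes) were free of overlap in that comparison. In Low Protein the Il11 difference was -0.36 (limma adjusted p = 0.644) and ranged from -0.57 without its litter 1 to -0.16 without its litter 2. Ebi3, a subunit of the IL-27 and IL-35 cytokines, was at -0.25 in Poly I:C (limma adjusted p = 0.450). It was at -0.43 (limma adjusted p = 0.0363) without litter 1 of that group, but at -0.07 without its litter 2. Lif had 3 Low Protein pups at the offset and a median of 3.40 estimated reads, so its log2 difference of -3.62 depends on the offset. The Lif call was lost without Saline pup 2.1, by median of ratios and by upper quartile. The ligand median was -0.25 in Poly I:C, -0.10 in Low Protein and -0.05 in MAM. At the unadjusted threshold 2, 2 and 0 ligands of 7 were lower, beside 5.30%, 4.47% and 7.46% of all genes.

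Of 6 other receptors of the family, 5 were tested and none was at the unadjusted threshold in any comparison with Saline. Of the 7 other kinases and STATs tested, 1 was lower at that threshold in Low Protein, beside 4.47% of all genes. It was Stat5b, a STAT of growth hormone and cytokine receptors, with a log2 difference of -0.28 (limma adjusted p = 0.693). The Stat5b call was lost without Saline pup 2.1, by median of ratios and by gene span.

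Of 13 other inhibitors tested, 1 was higher in Low Protein, 1 lower in MAM, and 1 higher and 1 lower in Poly I:C at the unadjusted threshold, beside 2.64% of all genes higher in Low Protein, 7.46% lower in MAM, and 3.84% higher and 5.30% lower in Poly I:C. Socs6, a SOCS box protein, was at 0.699 ± 0.0943 in Saline and 0.818 ± 0.0593 in Poly I:C, a log2 difference of 0.24 (exact permutation p = 0.0238, limma adjusted p = 0.368). Its difference was 0.17 in Low Protein (limma adjusted p = 0.683), and its MAM level was 0.686 ± 0.0384. Without Saline pup 2.1 the Low Protein difference was 0.11, and the call was lost. Socs2, an inhibitor of growth hormone signalling, was at -0.28 in Poly I:C (limma adjusted p = 0.463), and Socs5 at -0.14 in MAM (limma adjusted p = 0.518), which was -0.05 without litter 1 of Saline. The Socs2 call was lost without Saline pup 2.1. By median of ratios, upper quartile and gene span alike, 0 inhibitors were lower in MAM and 1 (Ptpn6) was higher. The list median was 0.11 in Poly I:C, 0.02 in Low Protein and -0.05 in MAM, beside 0.00, -0.02 and -0.07 for all genes.

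In the SHP2 and ERK arm, which gp130 feeds beside STAT3, 1 of 14 genes was lower in each comparison, beside 7.46% of all genes for MAM, 5.30% for Poly I:C and 4.47% for Low Protein, so these counts are near the background. Mapk3, the ERK1 kinase, ran from 16.0 to 17.5 in Saline, from 14.2 to 16.0 in Poly I:C and from 14.4 to 16.0 in Low Protein. Its Poly I:C pups were all below its saline pups, beside 0.434% of all genes free of overlap. The log2 difference was -0.13 in Poly I:C (exact permutation p = 0.00216, the smallest possible, limma adjusted p = 0.357) and -0.12 in Low Protein (exact permutation p = 0.00433, limma adjusted p = 0.625). Sos1, the Ras exchange factor, was at -0.24 in MAM (limma adjusted p = 0.518), or -0.13 without litter 1 of Saline. Scaling by gene span ended the Sos1 call in MAM and the Mapk3 call in Low Protein. The median of this list was -0.01 in Poly I:C, -0.03 in Low Protein and -0.10 in MAM.

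All 20 STAT3 target genes listed were tested, and 0 were at the unadjusted threshold in Low Protein. In MAM, 2 were higher and 1 was lower, beside 2.15% and 7.46% of all genes. Birc5, which encodes the mitotic protein survivin, was at 1.30 ± 0.0935 in Saline and 1.57 ± 0.165 in MAM, a log2 difference of 0.27 (exact permutation p = 0.00866, limma adjusted p = 0.480). Gfap, the astrocyte filament gene, was at 0.22 (limma adjusted p = 0.517), and A2m, a protease inhibitor, at -0.29 (limma adjusted p = 0.518). The Gfap call was lost without Saline pup 2.1, and the A2m call by median of ratios, upper quartile and gene span. In Poly I:C, 1 was higher and 2 were lower, beside 3.84% and 5.30% of all genes. Pim3, a serine kinase gene, was at 0.11 (limma adjusted p = 0.538) and Cebpb, a transcription factor of the acute-phase response, at -0.40 (exact permutation p = 0.0130, limma adjusted p = 0.529). The Cebpb call was lost without Saline pup 2.1, and the Pim3 call under each other scaling. Bcl3, a coregulator of NF-kappaB, was at -1.12 (limma adjusted p = 0.352), but with a median of only 9.47 estimated reads. The median of the 20 genes was -0.07 in Poly I:C, 0.00 in Low Protein and -0.01 in MAM, beside 0.00, -0.02 and -0.07 for all genes.

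**Figure D5:**
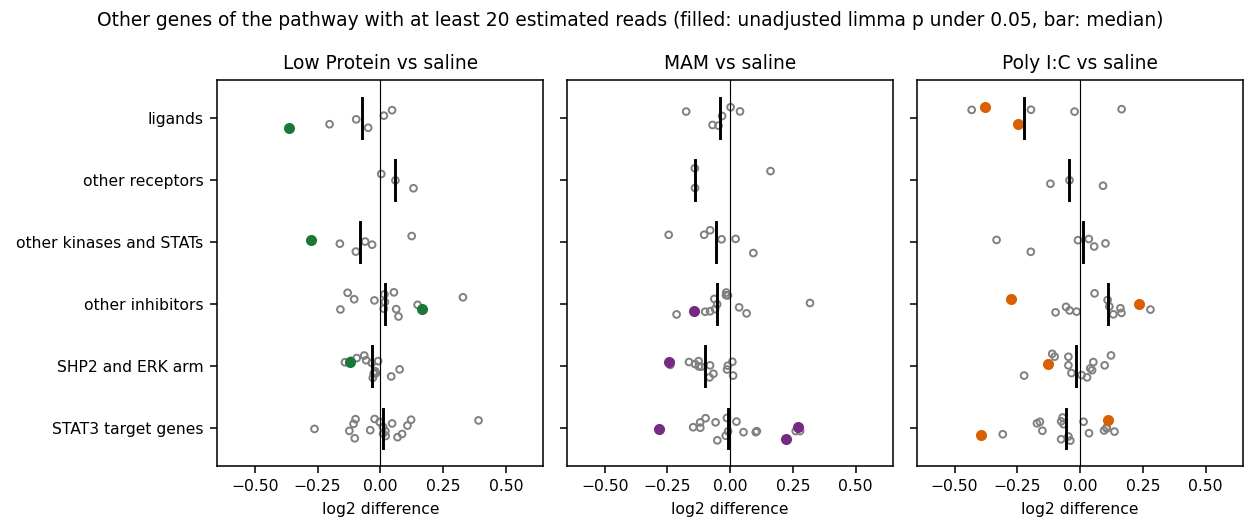
The log2 difference from Saline (horizontal axis) of 60 other pathway genes with at least 20 estimated reads, by list (rows) and comparison (panels), with filled points for an unadjusted limma p under 0.05 and a vertical bar at each list's median among the genes plotted. Filled points are few in each list and lie on both sides of 0 for the STAT3 target genes in MAM and Poly I:C.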

How the data were processed

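RNA of 24 pups, 6 per group, was used, and every sample column was mapped by its name. The authors trimmed reads at both ends, aligned them to rn6 with STAR (2.4.1d), counted them against RefSeq transcripts with the Partek expectation-maximisation tool, and deposited TPM values with an offset of 0.0001 added. The deposited TPM values sum to 70350.1 per pup and appear to be scaled by genomic span. No counts were used.

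Log2 values of the 13371 genes above the offset in at least 18 of 24 pups were fitted with limma (3.58.1, R 4.3.3), with the group as the factor and a variance trend, with Benjamini-Hochberg adjustment over all of them. Exact two-sided permutation tests of a gene's mean log2 value set 6 pups against 6 (924 splits, smallest p 0.00216). The fit was tested on simulated data. Reads were estimated from the steps between low values, of which 49.1% to 54.7% came within 0.05 of a whole multiple, so the depths are approximate and no count test was run.

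The genes, lists and tests were chosen with earlier results of these data known. The study used an unadjusted p under 0.05, and for Poly I:C and protein malnutrition also a minimum log fold change, which was not applied here. Its limit on low values, a lowest group mean above 1, is an alternative here, since it removes long genes. Named are the 8 genes, the listed genes at the unadjusted threshold and the 2 most similar genes of each member. The most extreme gene of each list was also part of that rule but is not printed. Il6 and the cell type markers named were singled out after their values were seen. Scaling by gene span, with spans of 93.9% of genes tested from GRCr8, was added after the data were seen, as were the marker lists under each scaling and without Saline pup 2.1. Alternatives covered the filter, trend, pseudocount, scaling, pups in the fit, litter, replicate block and leaving out each pup and litter. The Il27 and Socs7 entries were not found under these symbols, qPCR data were not analysed here, and 1 listed gene at the unadjusted threshold is not reported here.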

Additional observations from a re-analysis of the deposited data

Results flagged for a closer look

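Single pups stood apart from the other 5 of their group by Dixon's criterion in 3 of 96 tests of the 8 genes and the named pathway genes, and chance flags about 1 in 20. The highest A2m value in Low Protein was 0.0610 (pup 2.2), with the others from 0.0407 to 0.0477. The highest Birc5 value in Saline was 1.48 (pup 2.2), with the others from 1.22 to 1.31. The highest Bcl3 value in Poly I:C was 0.0213 (pup 2.1), with the others from 0.00530 to 0.00813.

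Other values were set apart because the effects of 2 treatments differed at an unadjusted limma p under 0.05. MAM against Poly I:C gave a log2 difference of -0.18 for Jak1 (limma adjusted p = 0.175) and -0.24 for Jak2 (limma adjusted p = 0.103). In the same contrast Il11 was at 0.33 (limma adjusted p = 0.169), Socs6 at -0.25 (0.0916), Sos1 at -0.28 (0.169), Bcl3 at 1.17 (0.0924) and Pim3 at -0.12 (0.226), all adjusted p-values by limma. Low Protein against MAM gave 0.17 for Jak2 (limma adjusted p = 0.552), -0.32 for Il11 (0.497) and 0.18 for Socs6 (0.511). None passed the adjusted threshold, and their causes were not tested.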

How the results depend on the processing

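None of the 8 genes was past the adjusted threshold as reported, and the number at the unadjusted threshold was 3 for MAM, 2 for Low Protein, 0 for Poly I:C and 3 between treatments. With the study's limit of a lowest group mean above 1, which leaves only Il6st and Socs3 of the 8, these were 0 in Low Protein, 0 in MAM and 0 between treatments, and the genes at that threshold were 576 for MAM, 507 for Poly I:C and 420 for Low Protein, with 1 adjusted call in MAM, out of 5086 genes instead of 13371. Scaling by gene span gave 1 of the 8 in Low Protein, 0 in MAM and 1 between treatments, and 708 genes and 1 adjusted call in MAM. Litter means gave 682 genes and 0 adjusted calls in MAM and 807 genes in Poly I:C, and median of ratios gave 1 adjusted call in Low Protein. The causes were not tested. The counts under the study's limit are out of fewer genes, so they cannot be set directly against the other counts.

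With each pup or litter left out, 0 to 2 of the 8 genes were at the unadjusted threshold for Low Protein (0 without its litter 2), 0 to 3 for MAM (0 without litter 1 of Saline) and 0 for Poly I:C. Genes at that threshold numbered 475 to 1815 for MAM (475 without litter 1 of Saline and 1815 without Saline pup 2.1), 641 to 2390 for Poly I:C (without its litter 2 and its litter 1) and 577 to 1086 for Low Protein (577 without litter 2 of Saline). Adjusted calls numbered 0 to 3 for MAM, 0 to 253 for Poly I:C (253, with Ebi3 among them, without its litter 1) and 0 to 13 for Low Protein (13 without its litter 1).

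Signs changed for differences near 0. Adding 1 before the logarithm gave 0.0011 for Il6r in Low Protein and 0.0031 for Lifr in Poly I:C. Median of ratios gave 0.018 for Il6r and 0.0084 for Jak2 in Low Protein, 0.031 for Lifr and 0.052 for Cntfr in MAM against Poly I:C, and 0.0019 for Il6r in Low Protein against Poly I:C. Upper quartile gave -0.0036 for Il6r and -0.0089 for Socs3 in Poly I:C, 0.036 for Lifr and 0.056 for Cntfr in MAM against Poly I:C, -0.00013 for Lifr in Low Protein against MAM, and 0.0012 for Il6r in Low Protein against Poly I:C. Scaling by gene span gave 0.042 for Il6r, 0.0036 for Lifr and 0.032 for Jak2 in Low Protein, 0.022 for Lifr and 0.019 for Cntfr in MAM, 0.0048 for Jak1 in Poly I:C, 0.057 for Lifr and 0.058 for Cntfr in MAM against Poly I:C, -0.018 for Lifr in Low Protein against MAM, and 0.0038 for Il6r in Low Protein against Poly I:C. With pups or litters left out, the ranges that crossed 0 in Low Protein were -0.20 to 0.18 for Il6r, -0.13 to 0.026 for Il6st, -0.13 to 0.094 for Jak2 and -0.098 to 0.0051 for Lifr. In MAM they were -0.090 to 0.29 for Il6r and -0.23 to 0.049 for Lifr. In Poly I:C they were -0.17 to 0.21 for Il6r, -0.014 to 0.072 for Il6st, -0.060 to 0.022 for Jak1, -0.26 to 0.14 for Lifr and -0.11 to 0.13 for Socs3.

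The samples share only a number across groups. Of 36 same-numbered pairs of pups, 5 had deviations correlated above 0.1 (range -0.10 to 0.18), and the replicate block, with the number as a fixed term, gave 1 adjusted call in MAM instead of 2 and kept the counts of the 8 genes. Counting error is largest for Il6r and Lifr, and 2 litters per group limit every comparison.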

Other observations

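In MAM against Poly I:C, a contrast that leaves out the saline pups, the calls at the unadjusted threshold in the other parts of the pathway were as follows. Of the 13 other inhibitors tested 4 were lower and 0 higher, of the 14 genes of the SHP2 and ERK arm 3 were lower and 0 higher, and of the 20 STAT3 target genes 3 were lower and 1 higher. Over all genes tested 14.1% were lower and 3.78% higher. The list medians on the log2 scale were -0.05 for the inhibitors, -0.08 for the SHP2 and ERK arm and 0.05 for the STAT3 target genes, with -0.06 for all genes. The 7 ligands tested had a median of 0.20, and 1 of them was higher. None of the 5 other receptors tested and none of the other kinases and STATs was at that threshold. No gene of these lists passed the adjusted threshold, which 144 genes passed in this contrast. All these values are as deposited, and the counts changed with the scaling. By median of ratios, upper quartile and gene span, in this order, 1, 1 and 1 inhibitors were lower. Of the STAT3 target genes 5, 4 and 3 were higher and 2, 2 and 2 lower. In the SHP2 and ERK arm 3, 3 and 1 were lower and 1, 2 and 0 higher. Of the ligands 3, 3 and 1 were higher, and of the other receptors 1, 1 and 0.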
